A study of Mus musculus with 6 samples.

Results

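The 10 genes described here carry the cystine, glutathione and thioredoxin branch of redox metabolism in T cells. They were chosen by symbol from a table of 26469 gene rows: Slc7a11, Cth, Gclc, Gclm, Gss, Gsr, Gpx4, Txnrd1, Hmox1 and Nqo1. All 10 were found and all 10 passed the filter on low counts, among 18323 genes tested. RNA was measured in 6 libraries of mouse splenic T cells labelled as CD4+, 3 control and 3 mutant. Naive CD4+ T cells had been sorted and cultured toward regulatory T cells (Tregs) for 36 h in 48-well plates with TGFβ at 5 ng/ml, hamster antibodies to CD3 and CD28, and antibodies that block IL-4 and IFNγ. Control mice were Sf3b1K700E/fl and are annotated WT, and mutant mice carried Cd4Cre as well. Both groups thus hold the conditional K700E allele of Sf3b1, a core subunit of the splicing machinery that is recurrently mutated in cancer, and the mutant group differs by a Cre driven from the T cell gene Cd4. The labels give no age, sex, strain or number of animals behind a library, and do not say that libraries came from separate mice, so the p-values speak only of how these libraries vary. The medium, shared by both groups, held 50 µM β-mercaptoethanol, 2 mM l-glutamine and 10% serum. Mercaptoethanol reduces cystine in the medium and lets lymphocytes take up its sulfur without the cystine carrier.

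As background, activated T cells need cysteine for protein and for glutathione, the main soluble thiol of the cell. Cystine enters through Slc7a11, the light chain of the xCT antiporter, while Cth cleaves cystathionine to make cysteine inside the cell. Gclc and Gclm, the catalytic and modifier subunits of glutamate-cysteine ligase, make the dipeptide to which Gss adds glycine. Gsr and Txnrd1 use NADPH to reduce oxidised glutathione and thioredoxin, and Gpx4 spends glutathione on lipid peroxides. Hmox1 degrades haem and Nqo1 reduces quinones. Many of these genes are classic targets of NRF2, a factor released from Keap1 under oxidative stress, and Slc7a11 and Cth are also targets of ATF4, the factor of the amino acid response.

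The promoter sequences below show where the letters of these factors' motifs stand. Of the 10 genes, 6 matched entries in RefSeq's GRCm38.p6 promoter table (windows that begin 250 bases before each start), with 11 entries in all. The NRF2 antioxidant response element was searched as TGACNNNGC and the ATF4 amino acid response element as TGATGNAA, on both strands. Over all 32851 promoters of the table, 12.4% held the first motif and 3.97% the second. No match of one overlapped a match of the other in these windows. In the lines below, 5′ to 3′ in the direction of transcription, capitals mark the match with 20 bases on each side. The Slc7a11 stretch (chr3:50443633-50443699, minus strand) holds the ATF4 motif on each strand, starting 66 and 47 bases before the start, as 0.0700% of promoters hold at least 2 matches. The Gclm stretch (chr3:122245403-122245451, plus strand) and the Txnrd1 stretch (chr10:82859094-82859142, plus strand, 1 of 3 Txnrd1 entries) hold the NRF2 motif on the reverse strand, 134 and 92 bases before the start.
Slc7a11: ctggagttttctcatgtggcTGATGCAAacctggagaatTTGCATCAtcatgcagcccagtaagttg
Gclm: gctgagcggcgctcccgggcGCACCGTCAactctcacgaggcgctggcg
Txnrd1: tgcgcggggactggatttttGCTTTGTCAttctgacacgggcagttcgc
These letters were not in the windows of Gss, Nqo1 or the 4 entries of Gpx4, and a match is a description, not a shown binding site.

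The libraries held 33633196 to 43928723 estimated counts, of which mitochondrially encoded genes took 1.90 to 2.35%. Sf3b1 itself was at a mean of 661 CPM (counts relative to the library total, scaled by TMM in edgeR) in control and 627 in mutant libraries, a value that does not read the K700E change. The 8 CD4 T cell markers were all present, with a summed level of 1737 to 2414 CPM in the controls and 2014 to 2916 CPM in mutant libraries. Mutant 1 stood apart from the other 5 on the first principal component (89.8 against -24.6 to -7.10, 41.0% of the variance) and held Pecam1 at 151 CPM against 18.9 to 47.5. Mutant 2 held B cell genes, with Ms4a1 at 7.68 and Pax5 at 11.5 CPM, against at most 0.761 and 1.68 elsewhere. Ighm, also a B cell gene, was at 132 to 153 CPM in the controls and 119 to 182 CPM in mutant libraries. The 8 measured macrophage markers summed to 12.3 to 16.9 and 11.05 to 21.1 CPM, mostly Vcam1, and Mpo, the granulocyte marker in the table, was at most 0.0737 CPM. Control 1 held Xist at 3475 CPM and no Ddx3y, while the other 5 held Xist at 0.141 to 0.661 and Ddx3y at 83.8 to 100.01 CPM, so control 1 differed from the rest in sex. Control 1 also had the highest sum of the 6 CD8 T and NK cell markers, at 46.6 CPM against 9.03 to 26.7 CPM elsewhere. Cd8a was at 24.3 CPM in control 1 against 0.424 to 8.95 CPM, and Cd8b1 at 16.0 against 4.59 to 8.33 CPM. Nkg7 and Klrb1c of the same set were highest in mutant 1, at 8.20 and 0.763 CPM. The part of other cells or of sex in those values was not tested.

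None of the 10 genes passed an adjusted p of 0.05 in edgeR's quasi-likelihood test with Benjamini-Hochberg adjustment over all 18323 genes, and neither did any other gene (0.00% called). At an unadjusted p under 0.05 stood 2 of the 10, Slc7a11 and Nqo1, against 1396 of all genes tested (7.62%). Limma-voom also called no gene, with 1299 at an unadjusted p under 0.05. DESeq2 called 100 of the 15627 genes it gave an adjusted p (0.640%; 1618 unadjusted), among them Nqo1 as the 1 member. The fitted log2 fold change, mutant minus control, was below 0 for 7 members and above 0 for 3, with a median of -0.073, beside a median of 0.024 and 47.1% below 0 over all genes tested. No overlap of the groups was seen for Nqo1, higher in mutant (6.60% of all genes tested), and for Gpx4, lower in mutant (7.48%). The counts of genes with all mutant libraries highest or lowest in each list below stand beside these shares. In bulk RNA, fewer cells of a type and less RNA per cell cannot be told apart.

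**Figure D1:**
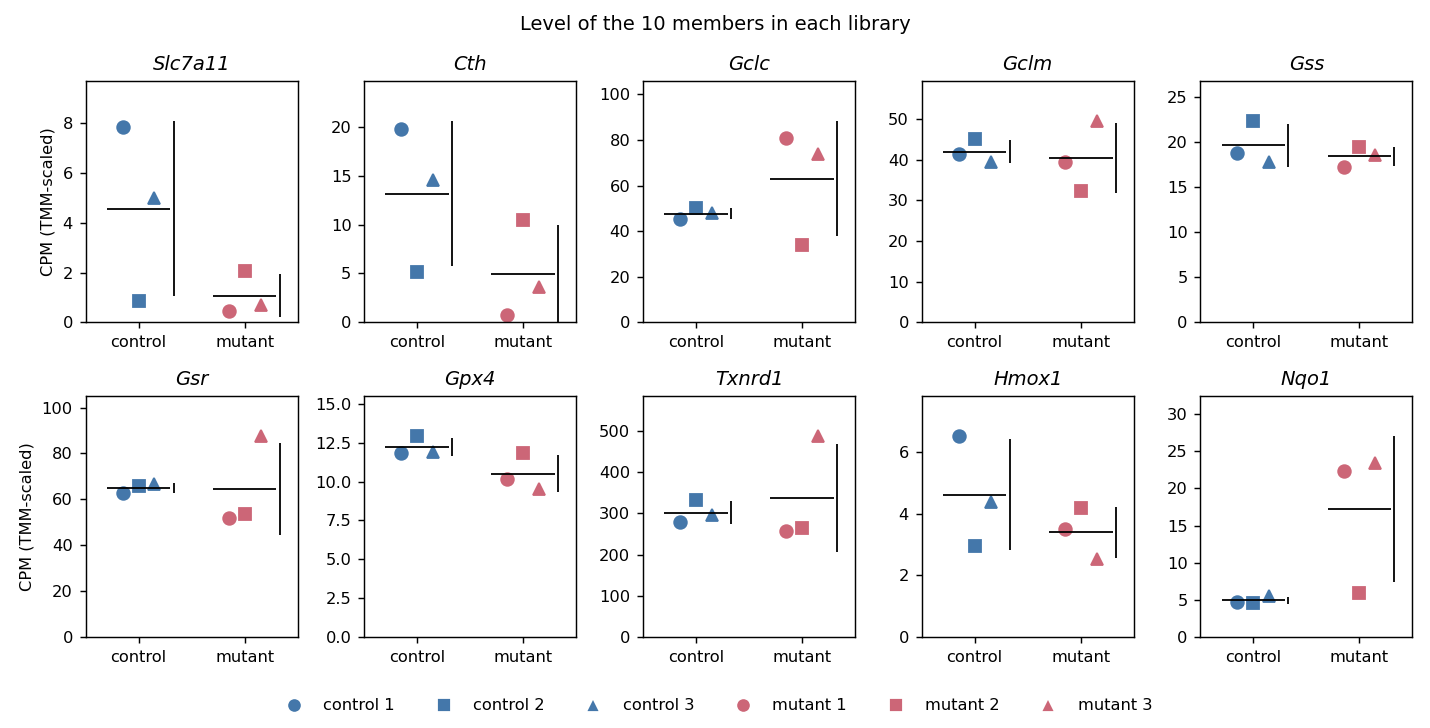
Level of each of the 10 genes in CPM (TMM-scaled, vertical axes from 0, a separate scale per gene) in 3 control libraries (blue) and 3 mutant libraries (red), with symbols for the replicate number, a horizontal line for the group mean and a vertical line for the SD. Slc7a11 and Cth vary widely within both groups, Nqo1 is high in mutant 1 and mutant 3 at 22.4 and 23.4 CPM, and Gss and Gpx4 lie close together in all 6 libraries.

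Among the genes of cystine supply, Slc7a11 (ENSMUSG00000027737), which exchanges intracellular glutamate for cystine, was at 7.84, 0.860 and 5.01 CPM in the controls and 0.452, 2.07 and 0.706 CPM in mutant libraries. Control 1 and control 3 were the highest, while control 2 lay below mutant 2, so the groups overlapped. The mean was 4.57 ± 3.51 CPM in the controls and 1.08 ± 0.869 CPM in mutant libraries (SD, n = 3 each). The log2 fold change was -2.08 ± 0.83 (SE; 95% interval -4.01 to -0.15), and its adjusted p was 0.645 by edgeR's quasi-likelihood test. Its level was low throughout, with 16 estimated counts in mutant 1, and spanned 17.3-fold across the 6 libraries and 9.12-fold within the controls alone. The SD of its log2 CPM within groups, 1.38, lay at the 98.8th percentile of all genes tested. Leaving out control 1 gave -1.45 and leaving out mutant 2 gave -2.95, and the value was below 0 in all 15 alternative settings.

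Cth (ENSMUSG00000028179), the last enzyme of transsulfuration, was at 19.8, 5.13 and 14.5 CPM in the controls and 0.707, 10.5 and 3.59 CPM in mutant libraries. The 6 libraries stood in the same order as for Slc7a11, from control 1 through control 3, mutant 2, control 2 and mutant 3 down to mutant 1. The groups again overlapped through control 2 and mutant 2. Group means were 13.1 ± 7.42 and 4.92 ± 5.02 CPM (SD, n = 3 each), and the log2 fold change of -1.41 ± 0.84 (SE) had a 95% interval from -3.36 to 0.53 (adjusted p = 0.730, edgeR). The highest and lowest library differed 27.99-fold, the widest span of the 10 genes. Cth was below 0 in every alternative, at -0.89 without mutant 1, -0.999 without control 1 and -2.59 without mutant 2.

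Both genes were read beside the other carriers and enzymes that bring in cyst(e)ine. Slc3a2, the heavy chain that anchors Slc7a11 in the membrane, was at 189.5, 134 and 169 CPM in the controls and 71.2, 114 and 104 CPM in mutant libraries. All 3 mutant values were under the lowest control value, and the log2 fold change was -0.77 ± 0.21 (unadjusted p = 0.00699, adjusted p = 0.598 by edgeR). Slc1a4, a neutral amino acid exchanger, was at 44.9, 23.5 and 45.99 CPM in the controls and 19.2, 20.1 and 12.1 CPM in mutant libraries. Its groups did not overlap, its log2 fold change was -1.15 ± 0.30, and it passed in DESeq2 (adjusted p = 0.0465) but not in edgeR (0.598). Of the 10 tested genes on the cystine and cysteine supply list, 0 passed in edgeR, 8 were below 0 and 2 above, 3 had all mutant libraries lowest, and the median was -0.34. Over all genes tested, 47.1% were below 0 and 7.48% had all mutant libraries lowest.

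Gclc (ENSMUSG00000032350), the catalytic subunit that sets the pace of glutathione synthesis, was at 45.3, 49.95 and 47.9 CPM in the controls and 80.7, 34.1 and 74.0 CPM in mutant libraries. The controls lay within 1.10-fold of each other, with mutant 1 and mutant 3 above all of them and mutant 2 below. Means were 47.7 ± 2.34 and 62.96 ± 25.2 CPM (SD, n = 3 each), and the log2 fold change of 0.40 ± 0.29 had a 95% interval from -0.28 to 1.08 (adjusted p = 0.758, edgeR). Without mutant 2 it was 0.72, with an unadjusted p of 0.00256 and an adjusted p of 0.673 by edgeR. Since mutant 2 was the only mutant library below the controls, that p depends on leaving out the library that went the other way. The log2 fold change was 0.19 without mutant 1 and 0.26 without mutant 3. Mutant 2 is the library with B cell transcripts, and their part in its Gclc level was not tested.

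Gclm (ENSMUSG00000028124), the modifier subunit that raises the affinity of the ligase for glutamate, was at 41.3, 45.1 and 39.5 CPM in the controls and 39.3, 32.3 and 49.5 CPM in mutant libraries. The groups overlapped, with mutant 3 highest and mutant 2 lowest. Its log2 fold change was -0.056 ± 0.18 with a 95% interval from -0.47 to 0.36 (adjusted p = 0.940, edgeR), and it was 0.10 without mutant 2. Gss (ENSMUSG00000027610), which completes the tripeptide, was at 18.8, 22.3 and 17.8 CPM in the controls and 17.3, 19.4 and 18.6 CPM in mutant libraries. All 6 values lay within 1.29-fold, and the log2 fold change was -0.091 ± 0.16 (95% interval -0.46 to 0.28; adjusted p = 0.888, edgeR). The SD of 0.13 within groups stood at the 11.1th percentile among the tested genes. The subunits and the synthetase therefore differed in spread among mutant libraries, which spanned 2.37-fold for Gclc, 1.53-fold for Gclm and 1.12-fold for Gss. The controls ran in the other order, at 1.10-fold, 1.14-fold and 1.25-fold.

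Of the 11 tested genes of glutathione synthesis and breakdown, 0 passed in edgeR, 4 were above 0 and 7 below, none had groups that did not overlap, and the median was -0.069. Chac1, which cleaves glutathione inside the cell and is induced by ATF4, was at 13.2, 2.92 and 14.1 CPM in the controls and 0.254, 5.58 and 0.815 CPM in mutant libraries. As for Slc7a11 and Cth, control 2 lay among the mutant libraries, and the log2 fold change was -2.18 ± 1.02 (adjusted p = 0.676, edgeR) and -4.20 without mutant 2. Oplah, which returns 5-oxoproline to glutamate, was at 0.987, 1.65 and 1.46 CPM in the controls and 3.98, 2.61 and 1.55 CPM in mutant libraries. Its groups overlapped through mutant 3, and its log2 fold change was 0.99 ± 0.42 (adjusted p = 0.645, edgeR) and 0.61 without mutant 1.

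Among the reductases, Gsr (ENSMUSG00000031584) was at 62.6, 65.8 and 66.5 CPM in the controls and 52.1, 53.8 and 87.6 CPM in mutant libraries. Mutant 3 was above and mutant 1 and mutant 2 were below all controls, so that the means of 64.98 ± 2.07 and 64.5 ± 19.99 CPM (SD, n = 3 each) lay close together. The log2 fold change was -0.010 ± 0.21 (95% interval -0.50 to 0.48; adjusted p = 0.991, edgeR), and its sign was above 0 in 6 of the 15 alternatives, upper quartile scaling among them. Txnrd1 (ENSMUSG00000020250), the cytosolic thioredoxin reductase, was at 278, 333 and 295 CPM in the controls and 258, 264 and 487 CPM in mutant libraries. The pattern was that of Gsr, with mutant 3 highest and the other mutant libraries lowest. Its log2 fold change was 0.16 ± 0.26 (95% interval -0.44 to 0.75; adjusted p = 0.880, edgeR). Without mutant 3 it was -0.21, and Gsr was then at -0.30, so mutant 3 decided the sign of Txnrd1.

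Of the 20 tested genes of the thioredoxin and peroxiredoxin system, 0 passed in edgeR, 10 were above and 10 below 0, 2 had all mutant libraries lowest, and the median was -0.013. Txnrd2, the mitochondrial thioredoxin reductase, was at 18.8, 22.4 and 18.8 CPM in the controls and 15.4, 14.4 and 17.2 CPM in mutant libraries. It was lower in every mutant library, with a log2 fold change of -0.35 ± 0.16 (adjusted p = 0.668, edgeR). Sesn1, a stress-induced sestrin, was at 29.6, 35.4 and 32.2 CPM in the controls and 87.8, 40.5 and 29.3 CPM in mutant libraries, with mutant 1 highest. Its log2 fold change was 0.70 ± 0.37 over all libraries and 0.12 without mutant 1. Txnip, which binds and inhibits thioredoxin, was at 78.7, 54.6 and 65.3 CPM in the controls and 134, 40.3 and 26.4 CPM in mutant libraries. Mutant 1 was above all controls and the other mutant libraries below them. The log2 fold change of Txnip was 0.017 ± 0.54 over all 6 libraries and -0.98 without mutant 1 (unadjusted p = 0.00228, adjusted p = 0.350 by edgeR). That p depends on leaving out the library that went the other way.

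Gpx4 (ENSMUSG00000075706), the selenoprotein that reduces lipid hydroperoxides, was at 11.8, 12.9 and 11.9 CPM in the controls and 10.1, 11.8 and 9.54 CPM in mutant libraries. Every mutant library was below every control library, but by little, since control 1 was at 11.846 and mutant 2 at 11.810 CPM. Means were 12.2 ± 0.598 and 10.5 ± 1.18 CPM (SD, n = 3 each), and the log2 fold change was -0.22 ± 0.17 (95% interval -0.63 to 0.18; adjusted p = 0.776, edgeR). The separation was lost under DESeq2 size factors, with a minimum of 1 CPM, without mitochondrial and small structural RNA genes, and without control 3 or mutant 1. The value of Gpx4 is uncertain for a further reason: of the 50-base windows of its 995-base transcript in GENCODE vM21, 61.7% also occur in the processed pseudogene Gpx4-ps2, and of the 100-base windows 48.4%. For the other members this share was at most 7.11% and 1.07%. Of the counts of Gpx4, Gpx4-ps1 and Gpx4-ps2 together, 12.9 to 16.0% were assigned to Gpx4 and 79.7 to 85.3% to Gpx4-ps2. The pseudogene row was at 78.1, 74.6 and 75.0 CPM in the controls and 51.7, 68.2 and 56.7 CPM in mutant libraries (log2 fold change -0.37 ± 0.15). The 3 rows together came to 91.6, 89.5 and 89.6 CPM in the controls and 63.4, 82.6 and 71.2 CPM in mutant libraries. That sum, tried after the values had been seen, again did not overlap, and its log2 fold change was -0.32 ± 0.14 (95% interval -0.65 to 0.0096; adjusted p = 0.659, edgeR).

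**Figure D2:**
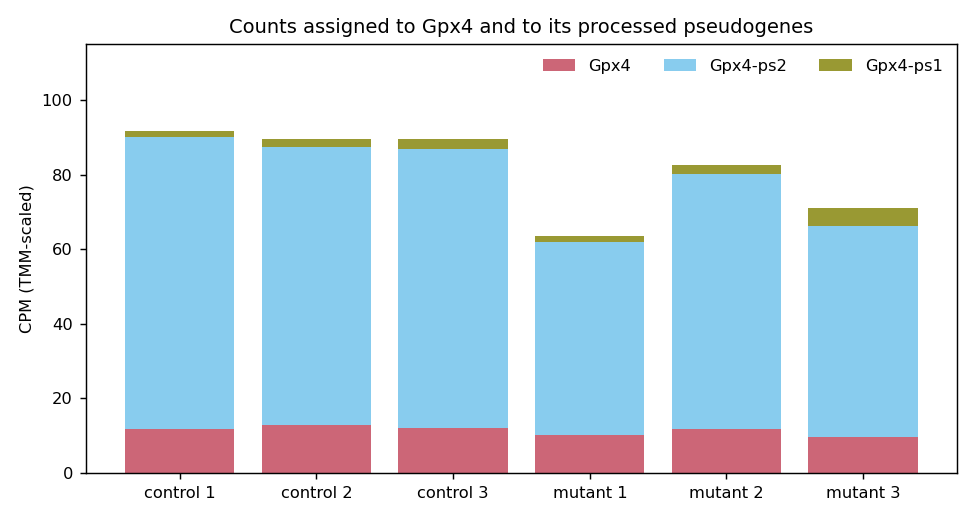
Stacked CPM (TMM-scaled, axis from 0) assigned to Gpx4 (red) and to its processed pseudogenes Gpx4-ps2 (light blue) and Gpx4-ps1 (olive) in each of the 6 libraries. Gpx4-ps2 takes most of the height in every library, and the whole bars stand at 89.5 to 91.6 CPM in the controls and 63.4 to 82.6 CPM in mutant libraries.

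Of the 20 tested peroxidases, transferases and glutaredoxins, 0 passed in edgeR, 12 were above and 8 below 0, 2 had all mutant libraries lowest (Gpx4 and Gstm4), and the median was 0.069. Gstm4, a mu-class glutathione transferase, was at 5.17, 4.13 and 5.76 CPM in the controls and 3.25, 4.02 and 2.96 CPM in mutant libraries, with a log2 fold change of -0.56 ± 0.26. Gsta4, an alpha-class transferase for lipid aldehydes, was at 0.261, 0.614 and 0.468 CPM in the controls and 4.32, 0.425 and 0.245 CPM in mutant libraries. It was high in mutant 1 alone, with a log2 fold change of 1.88 ± 1.02 over all libraries and -0.42 without mutant 1.

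Gpx4 and Txnrd1 are selenoproteins, made with a selenocysteine that needs its own machinery. Sephs2, which makes the selenium donor, was at 114, 102 and 112 CPM in the controls and 68.8, 70.7 and 79.0 CPM in mutant libraries. Its groups did not overlap and its log2 fold change was -0.58 ± 0.13 (unadjusted p = 0.00209, adjusted p = 0.598 by edgeR). Selenow, a small selenoprotein, was at 21.5, 29.6 and 18.8 CPM in the controls and 38.5, 32.6 and 29.7 CPM in mutant libraries, higher in every mutant library (log2 fold change 0.53 ± 0.21). Of the 24 genes on the selenoprotein list, 0 passed in edgeR, 11 were above and 13 below 0, 5 had all mutant libraries lowest and 1 highest, and the median was -0.13. Over all genes tested, 7.48% had all mutant libraries lowest and 6.60% highest.

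For lipid peroxidation and iron, the setting in which Gpx4 and Hmox1 are usually discussed, 0 of 19 tested genes passed in edgeR, 6 were above and 13 below 0, and the median was -0.11. All mutant libraries were lowest for 6 of them and highest for 1, beside 7.48% and 6.60% of all genes tested. Lpcat3, which loads polyunsaturated fatty acids into phospholipids, was at 53.8, 48.0 and 56.6 CPM in the controls and 30.4, 41.5 and 30.6 CPM in mutant libraries (log2 fold change -0.63 ± 0.17; adjusted p = 0.598, edgeR). Tfrc, the transferrin receptor, was at 1393, 1565 and 1389 CPM in the controls and 662, 1105 and 1245 CPM in mutant libraries, with mutant 1 lowest (log2 fold change -0.53 ± 0.23, and -0.29 without mutant 1). Hmox1 (ENSMUSG00000005413), the inducible haem oxygenase, was at 6.50, 2.95 and 4.38 CPM in the controls and 3.50, 4.16 and 2.53 CPM in mutant libraries. Control 1 was the highest and mutant 3 the lowest, and the groups overlapped. Means of Hmox1 were 4.61 ± 1.79 and 3.40 ± 0.823 CPM (SD, n = 3 each), and the log2 fold change of -0.44 ± 0.36 (95% interval -1.27 to 0.39; adjusted p = 0.784, edgeR) was -0.11 without control 1, -0.27 without mutant 3 and -0.68 without control 2. Splenic macrophages are rich in Hmox1. Beside it, the 8 macrophage markers in the table ranged from Vcam1 at 8.38 to 18.4 CPM down to Mrc1 at 0 to 0.0283 CPM, with Cd14 at 0.0246 to 0.0850 CPM. Marco, C1qa, C1qb and Spic are not analysed here, and their part in the Hmox1 values was not tested.

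Nqo1 (ENSMUSG00000003849), the quinone reductase, was at 4.76, 4.59 and 5.48 CPM in the controls and 22.4, 5.92 and 23.4 CPM in mutant libraries. Every mutant library was above every control library, with mutant 1 and mutant 3 far above and mutant 2 just above. Means of Nqo1 were 4.94 ± 0.471 and 17.2 ± 9.79 CPM (SD, n = 3 each). The log2 fold change was 1.80 ± 0.47 (95% interval 0.71 to 2.89), with an unadjusted p of 0.00523 and an adjusted p of 0.598 by edgeR's quasi-likelihood test. DESeq2 gave 1.78 ± 0.44 with an adjusted p of 0.0221, past the threshold, while limma-voom did not call it. The groups did not overlap in any of the 15 alternatives. As they were already apart, leaving a library out could change that only through rescaling. The log2 fold change ranged from 1.51 without mutant 3 to 2.23 without mutant 2. Without mutant 2, the mutant library nearest the controls, the adjusted p was 0.0709 by edgeR. Gclc shared the high values in mutant 1 and mutant 3, a pattern looked for after the values had been seen. These libraries were the 2 highest for 5.93% of all genes tested and for 3 of 24 tested NRF2 targets. Nqo1 and Gclc, which set the pattern, are among those 3, and Ftl1 is the only other, so the count is no support for it.

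**Figure D3:**
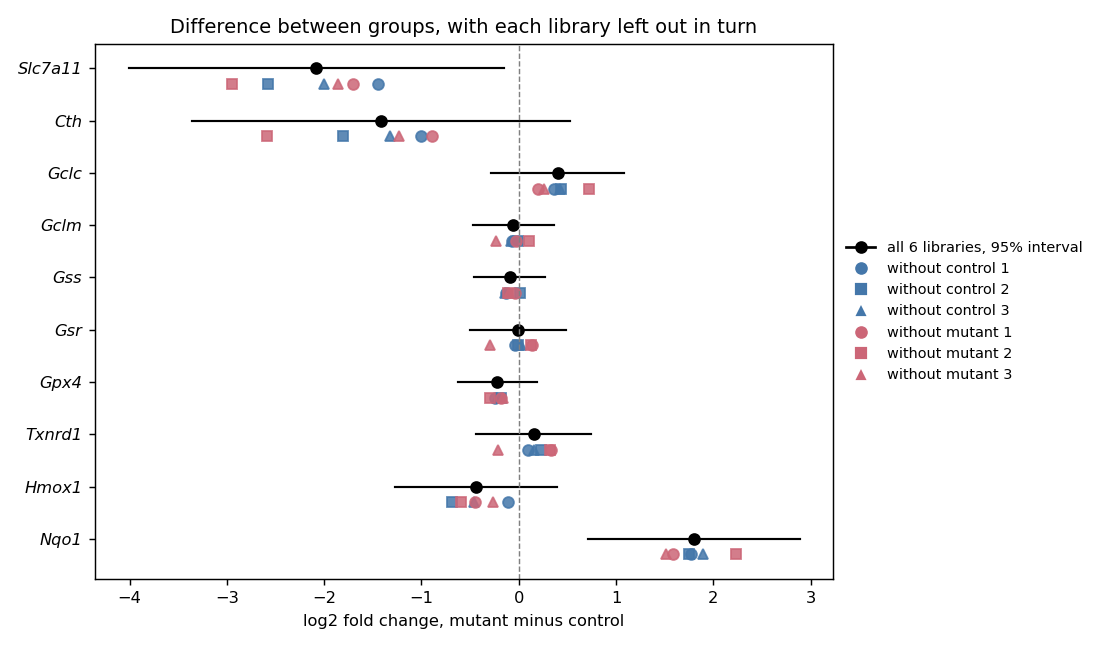
Log2 fold change of each gene, mutant minus control (horizontal axis), over all 6 libraries with its 95% interval (black) and, beneath, with each library left out in turn (blue for a control and red for a mutant library left out, symbols for the replicate number). Nqo1 stays between 1.51 and 2.23 whichever library is left out, Slc7a11 and Cth stay below 0, and Gsr and Txnrd1 cross 0.

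Among the regulators of NRF2, Nfe2l2, which encodes NRF2, was at 40.2, 50.2 and 53.2 CPM in the controls and 59.8, 47.8 and 51.1 CPM in mutant libraries (log2 fold change 0.14 ± 0.16, and 0.028 without control 1), and Keap1, its inhibitor, was at 47.8, 51.8 and 47.7 against 58.6, 43.8 and 52.1 CPM (0.069 ± 0.15). Both overlapped, with mutant 1 highest. Bach1, a repressor of Hmox1, was at 16.5, 12.8 and 15.5 CPM in the controls and 51.9, 10.3 and 12.2 CPM in mutant libraries, high in mutant 1 alone. Its log2 fold change of 0.73 ± 0.57 was -0.39 without mutant 1. Mafk, a partner of NRF2 and Bach1, was at 25.3, 27.5 and 25.5 CPM in the controls and 38.4, 27.5 and 37.1 CPM in mutant libraries, with mutant 1 and mutant 3 highest as for Nqo1 (log2 fold change 0.40 ± 0.17). The groups of Mafk were barely apart, with mutant 2 at 27.529 and control 2 at 27.457 CPM. Crebbp, a coactivator, was at 241 CPM in each control library and at 390, 276 and 292 CPM in mutant libraries (0.40 ± 0.16, and 0.25 without mutant 1). Of the 14 genes on the NRF2 control list, 0 passed in edgeR, 11 were above and 3 below 0, 2 had all mutant libraries highest, and the median was 0.11.

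The NRF2 target list, to which 7 of the 10 genes belong, was split in direction. Of its 24 tested genes, 0 passed in edgeR, 10 were above and 14 below 0, 1 had all mutant libraries highest (Nqo1) and 2 lowest (Fth1 and Ugdh), and the median was -0.096. Ugdh, which makes UDP-glucuronate, was at 70.8, 83.0 and 74.0 CPM in the controls and 68.4, 56.0 and 65.6 CPM in mutant libraries (log2 fold change -0.26 ± 0.14, and -0.16 without mutant 2). Tkt, a pentose phosphate enzyme, was at 326, 398 and 353 CPM in the controls and 241, 286 and 329 CPM in mutant libraries (log2 fold change -0.33 ± 0.16, and -0.21 without mutant 1), with mutant 3 inside the control range. Srxn1, which repairs overoxidised peroxiredoxins and was picked after its values were seen, was at 6.68, 1.72 and 6.83 CPM in the controls and 4.86, 1.67 and 12.2 CPM in mutant libraries. It was low in control 2 and mutant 2 and highest in mutant 3.

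Atf4 was at 436, 341 and 445 CPM in the controls and 148, 318 and 307 CPM in mutant libraries. Every mutant library was lower, mutant 1 most of all, and the log2 fold change was -0.66 ± 0.29 (adjusted p = 0.656, edgeR) and -0.37 without mutant 1. Of the 20 genes on the ATF4 list, to which Slc7a11 and Cth belong, 0 passed in edgeR, all 20 were below 0, 8 had an unadjusted p under 0.05, 7 had all mutant libraries lowest, and the median was -0.68. The log2 fold changes on this list ran from -2.18 to -0.0034. Nearest 0 were Ddit4 at -0.0034 ± 0.33 and Sesn2 at -0.027 ± 0.51, each with an SE larger than the value. Over all genes tested, 47.1% were below 0, 7.62% had an unadjusted p under 0.05 by edgeR and 7.48% had all mutant libraries lowest. Aldh18a1, a proline synthesis enzyme, was at 216, 199 and 215 CPM in the controls and 116, 152 and 121 CPM in mutant libraries. Its log2 fold change was -0.69 ± 0.15, and it passed in DESeq2 (adjusted p = 0.0462) but not in edgeR (0.598). The mean log2 level of the whole list, set against the control mean, was 0.39, -0.61 and 0.23 in control and -1.65, -0.29 and -1.13 in mutant libraries, so control 2 lay below mutant 2 here as well. On the same scale the NRF2 target list was at 0.11, -0.15 and 0.043 in control and -0.11, -0.24 and 0.13 in mutant libraries. The order of the 6 libraries seen for Slc7a11 and Cth was found in 6 of the 20 ATF4 list genes and in 87 of all 18323 tested (0.475%). Slc7a11 and Cth set that order and are counted in both figures. The others on the list were Asns, Atf3, Mthfd2 and Cebpg. The count was made after the order had been seen, so it only describes these libraries. Of the 24 tested NRF2 targets, 1 stood in that order, Slc7a11 itself. Asns, the asparagine synthetase, was at 125, 38.2 and 109 CPM in the controls and 4.27, 49.1 and 14.4 CPM in mutant libraries.

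**Figure D4:**
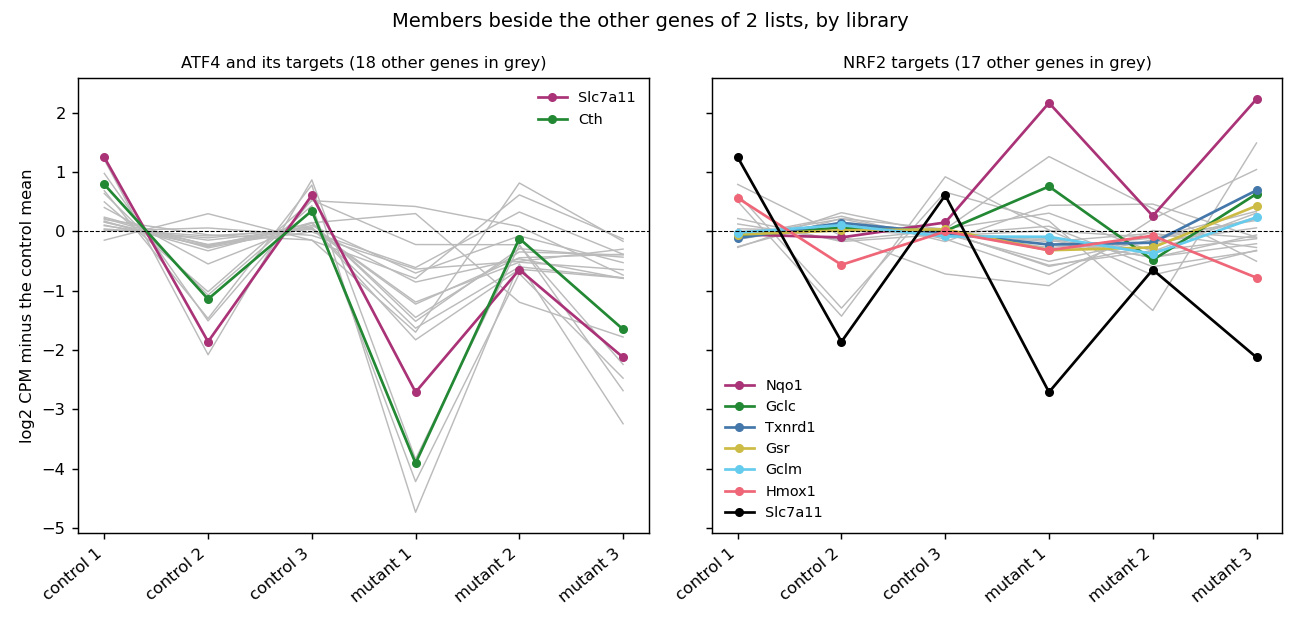
Log2 CPM minus the control mean (vertical axis) in each of the 6 libraries for the members in colour and the other tested genes of the same list in grey, with lines that only join the values of one gene. In the ATF4 panel Slc7a11 and Cth dip in control 2, mutant 1 and mutant 3 with many grey genes, and in the NRF2 panel Nqo1 and Gclc are high in mutant 1 and mutant 3 while Slc7a11 is low there.

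NADPH feeds Gsr, Txnrd1 and Nqo1. Of the 16 tested genes that supply it, 0 passed in edgeR, 6 were above and 10 below 0, 3 had all mutant libraries lowest and 1 highest, and the median was -0.20. Over all genes tested, 7.48% had all mutant libraries lowest and 6.60% highest. Idh2, the mitochondrial NADP-dependent isocitrate dehydrogenase, was at 45.5, 44.5 and 46.4 CPM in the controls and 29.2, 33.4 and 32.8 CPM in mutant libraries (log2 fold change -0.52 ± 0.13; unadjusted p = 0.00429, adjusted p = 0.598 by edgeR). Nnt, the transhydrogenase of the inner mitochondrial membrane, was at 16.6, 17.3 and 14.95 CPM in the controls and 32.7, 20.99 and 19.97 CPM in mutant libraries, higher in each (log2 fold change 0.59 ± 0.22, and 0.34 without mutant 1). Of the 10 tested genes that make or remove superoxide and hydrogen peroxide, 0 passed in edgeR, 5 were above and 5 below 0, 1 had all mutant libraries highest and 1 lowest, and the median was -0.050. The lower one was Sod2, the mitochondrial superoxide dismutase, at 105, 117 and 105 CPM in the controls and 74.0, 86.3 and 93.1 CPM in mutant libraries (log2 fold change -0.36 ± 0.14). The higher one was Cybb, the oxidase subunit of phagocytes and B cells, at 0.232, 0.147 and 0.110 CPM in the controls and 0.367, 1.90 and 0.435 CPM in mutant libraries, highest in the library with B cell transcripts, mutant 2. Its log2 fold change was 2.44 ± 0.75 over all libraries and 1.31 without mutant 2.

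Levels between genes were compared per kilobase of merged exon (GENCODE vM21), as the median CPM per kilobase over the 6 libraries. On the rows as deposited, Txnrd1 was highest at 40.4, followed by Gsr at 23.3 and Gclc at 13.0. Gpx4 at 6.86 and Gclm at 6.42 came next, with overlapping ranges of 5.53 to 7.49 and 5.13 to 7.86. The place of Gpx4 depends on how reads were split: with the pseudogene rows added, over the same exon length, its median was 49.9 (36.8 to 53.2), above the Txnrd1 median and inside the Txnrd1 range of 36.4 to 68.7. Nqo1 at 3.67, Gss at 3.16, Cth at 2.80 and Hmox1 at 2.19 followed, and each of these overlapped its neighbour in that order. The order and overlaps depend on the length used. Merged exons and longest coding transcript were 5915 and 1963 bases for Gss, and 1553 bases by both for Nqo1. They were 7086 and 3622 bases for Txnrd1. Levels per kilobase of transcript were not computed. Slc7a11 was lowest at 0.105, with a range of 0.0325 to 0.563, below that of Hmox1 at 1.44 to 3.71. Slc7a11 has 13922 bases of merged exon, the longest of the 10, and the neighbours whose ranges did not overlap were Txnrd1 and Gsr, Gclc and Gpx4, and Hmox1 and Slc7a11.

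The genes whose log2 CPM ran most like that of a member over the 6 libraries were taken among the 9780 genes whose mean log2 CPM was at least 3 for Slc7a11, and 9779 for Gclm and Gpx4, which are themselves in that set. For Slc7a11 these were Pign (Pearson correlation 0.998), Ccdc82 (0.992) and Zcchc4 (0.988). For Gclm they were Bend3 (0.997), Sgf29 (0.972) and Socs6 (0.968), and for Gpx4 they were Zc3h7b (0.989), Trat1 (0.986) and Itfg1 (0.986). With 6 libraries and this many genes, values of this size describe these libraries only. Pign shows the difference in amplitude: it was at 84.2, 53.6 and 76.2 CPM in the controls and 46.5, 63.5 and 52.8 CPM in mutant libraries, a far narrower span than that of Slc7a11.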

How the data were processed

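RNA of 6 libraries (3 control, 3 mutant) was prepared from 1 µg of total RNA with a ribosomal RNA depletion kit, per the labels' protocols. The authors used STAR 2.7.8a and Partek with GRCm39 (mm39), per the submitters' processing notes. What each was used for is not given in the sources used here, nor are the gene annotation and the strand setting. The authors deposited estimated counts per gene, not normalized, of which 57.8% were whole. They were rounded to whole numbers. Genes were kept by filterByExpr (minimum count 10; 99.9% of counts), scaled by TMM and compared with edgeR's quasi-likelihood test (edgeR 4.0.16, R 4.3.3), two-sided, with Benjamini-Hochberg adjustment over 18323 genes and a threshold of 0.05. DESeq2 1.42.0 and limma-voom (limma 3.58.1) were alternatives. DESeq2 gave no adjusted p to 10788 of the rows with a count. Depth was 33633196 to 43928723 counts per library, and libraries of the same group differed beyond counting noise (chi-square over its degrees of freedom, 18.6 to 176). Every per-sample column was used.

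The members and lists were chosen with earlier results of these data known. All members are named. Nfe2l2, Keap1, Bach1, Atf4, Slc3a2 and Txnip were named in any case, and from each list up to 3 further genes past the threshold or, where fewer than 2 passed, the 2 tested genes with the smallest p. Likeness to Slc7a11, Gclm and Gpx4 was the Pearson correlation of log2 CPM (prior count 2). Promoters came from RefSeq's GRCm38.p6 table, and exon lengths and transcripts from GENCODE vM21 (GRCm38), another build than that of the counts. The script was tested on simulated data. The result of 1 marker gene is not reported here.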

Additional observations from a re-analysis of the deposited data

How the results depend on the processing

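Genes called were 0 in edgeR and 100 in DESeq2, and members called 0 and 1. Members whose groups did not overlap numbered 2, and 1 with DESeq2, with DESeq2 size factors in edgeR, with 1 CPM in at least 3 libraries and with mitochondrial and small structural RNA genes taken out. With a library left out they numbered 1 to 5: 5 without control 2, mutant 2 or mutant 3, and 1 without control 3 or mutant 1. Groups with fewer libraries separate more easily, and the share over all genes was not taken in these settings. Txnip turned to -0.0066 in DESeq2, -0.32 in limma-voom, -0.0025 without a count filter and -0.33 with the replicate block. Gsr turned to 0.025 with upper quartile scaling, 0.021 with 1 CPM and 0.0075 without mitochondrial and small RNA genes. With a library left out, the log2 fold change ran from -0.14 to 0.0088 for Gss, -0.30 to 0.14 for Gsr, -0.23 to 0.10 for Gclm, -0.21 to 0.33 for Txnrd1, -0.98 to 0.39 for Txnip, -0.021 to 0.19 for Keap1, -0.39 to 1.12 for Bach1 and -0.42 to 2.38 for Gsta4. The cause was not tested. Same-numbered libraries did not deviate together (correlations -0.067 to -0.028), so the replicate block joins libraries by number only. It called 0 genes and gave Nqo1 1.58 and a member median of -0.081. Depth limits Slc7a11, at 16 counts in mutant 1.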
